A study of Mus musculus with 8 samples.

Results

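Interferon-stimulated genes are the genes that cells switch on when they sense interferon, and a list of 42 of them and of interferon receptor genes was followed in mouse brain. A gene entered when the platform annotation pairs a probe set with its symbol alone, and 38 of the 42 did, out of 19938 genes measured in this way. Isg15, Gbp2 and Igtp pair only with probe sets of several symbols and Ifi44 is not listed in the annotation, so these 4 have no value here. Where a gene had several probe sets, the one with the highest 8-array mean stood for it. Genes were called bright when that mean was at or above 5.08, the median over all probe sets, and dim below it. By this split 9 of the 38 were bright and 29 were dim. Irf9 (mean 5.07) and Ifit3 (4.93) lay just below the split, and Ifit2 (5.65) and Irgm1 (5.89) were the nearest above it.

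RNA came from brain lysates; the mice were adult males, 2 to 4 months old. One group of 4 is labelled TNF-/-, mice without the cytokine tumour necrosis factor, with no strain, allele or clone named, and the other group of 4 is labelled TNF+/+, of strain C57BL/6. Every animal sample is a biological replicate with 1 Affymetrix Mouse Gene 1.0 ST array, and the values are the authors' log2 signals. The labels do not say whether the animals of the groups were littermates.

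Type I interferons bind the receptor pair IFNAR1 and IFNAR2, and interferon gamma binds IFNGR1 and IFNGR2. Kinases at the receptors then activate STAT proteins. STAT2 and IRF9 are parts of a complex that binds the interferon-stimulated response element in gene promoters. In macrophages, TNF is known to induce the transcription factor gene Irf1 and a low output of interferon beta, which in turn induces interferon-stimulated genes. Without infection these genes are mostly kept low in brain, and microglia and vascular cells are among the cells that can express them.

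The gene named in the genotype did not follow the labels. Tnf gave 5.67, 5.87, 5.92 and 6.21 in arrays labelled TNF-/-, against 4.48, 4.93, 4.24 and 4.47 in those labelled TNF+/+ (difference 1.39 ± 0.16, SE; limma, adjusted p = 0.0278). The labels name neither the deleted part nor the place of the probes, and probes lying elsewhere in the gene would check nothing. An exchange of the labels between the groups was not tested and would turn every direction below round, so all directions are those of arrays as labelled. TNF+/+ arrays 3 and 4 stood apart from the rest, with scores of 22.05 and 37.22 on the first principal component (24% of the variance) against -4.29 or lower for the other 6 arrays. Markers of the labelled tissue were present, with mean signals of 8 neuronal genes between 10.65 and 10.72 in arrays labelled TNF-/- and between 10.62 and 10.74 in those labelled TNF+/+. In whole tissue, fewer cells of a type and less RNA per cell cannot be told apart.

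None of the 38 genes passed limma's test over all probe sets at an adjusted p under 0.05, where 0.0816% of all 35556 probe sets and 0.0502% of all genes did. The lowest adjusted p among the 38 was 0.191, and Significance Analysis of Microarrays (SAM), the test named in the study's design text, also called 0. Of the 38 genes 30 (78.9%) were lower in arrays labelled TNF-/-, against 52.2% of all genes. But 29 of the 38 were dim, and 71.3% of all dim genes were lower, against 35.6% of all bright genes. At an unadjusted p under 0.05 there were 7, namely Irf7, Oasl2, Ifi27, Bst2, Gbp3, Trim30a and Parp14. All 7 were lower in arrays labelled TNF-/-, which is 18.4% of the 38, against 4.28% of all genes lower at that p and 7.37% higher. In 5 of them (Irf7, Oasl2, Bst2, Gbp3 and Parp14) every array labelled TNF-/- lay below every array labelled TNF+/+, or 13.2% of the 38, against 3.5% of all genes. Among all dim genes 5.43% were lower at that unadjusted p, and 5.19% had every array labelled TNF-/- below every other. No gene of the list was higher in all arrays labelled TNF-/-, against 4.16% of all genes. Without TNF+/+ arrays 3 and 4, 3 of the 38 were lower at an unadjusted p under 0.05. The share of all genes in that fit is not given, so this count has no background beside it. Probe sets called over the whole table also fell in that fit, from 29 with all arrays to 0. The lower count is therefore not read as particular to the list.

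Promoter sequences were taken from RefSeq for the genes whose groups did not overlap, because the response element is the DNA letter pattern through which interferon acts on them. Of the 38 genes 28 have an entry in the promoter table, and Parp14 is not among them. Its core, taken as GAAA, any 2 bases and GAAA again, was searched on both strands (TTTC, any 2 bases and TTTC on the other) in the 250 bases before each start. A match is a description of the letters and not of a bound site. Matches were found for 10 of the 28 genes (35.7%), against 3.46% of the 27025 genes in the table. The stretches below are from GRCm38.p6, read 5′ to 3′ along the gene's own strand up to the base before its start, with matches in capitals. They are Irf7 (chr7:141266425-141266674, minus strand), Oasl2 (chr5:114896684-114896933, plus strand), Bst2 (chr8:71537473-71537722, minus strand), the first listed start of Gbp3 (chr3:142559794-142560043, plus strand) and, as a gene with 2 matches whose groups overlapped, Ifit1 (chr19:34640639-34640888, plus strand).
Irf7: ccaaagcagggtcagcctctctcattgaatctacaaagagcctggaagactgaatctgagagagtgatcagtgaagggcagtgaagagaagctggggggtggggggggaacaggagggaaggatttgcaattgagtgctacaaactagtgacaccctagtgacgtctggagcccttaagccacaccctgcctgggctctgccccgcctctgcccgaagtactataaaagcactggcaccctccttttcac
Oasl2: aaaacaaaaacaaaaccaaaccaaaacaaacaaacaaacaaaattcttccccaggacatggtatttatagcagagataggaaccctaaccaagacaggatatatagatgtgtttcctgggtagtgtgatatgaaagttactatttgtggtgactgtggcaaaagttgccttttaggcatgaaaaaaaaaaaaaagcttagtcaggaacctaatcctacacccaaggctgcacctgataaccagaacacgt
Bst2: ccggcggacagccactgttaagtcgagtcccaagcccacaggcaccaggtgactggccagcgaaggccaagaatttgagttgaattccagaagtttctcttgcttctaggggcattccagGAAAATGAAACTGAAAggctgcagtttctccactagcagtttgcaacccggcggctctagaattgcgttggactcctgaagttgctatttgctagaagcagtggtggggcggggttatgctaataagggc
Gbp3: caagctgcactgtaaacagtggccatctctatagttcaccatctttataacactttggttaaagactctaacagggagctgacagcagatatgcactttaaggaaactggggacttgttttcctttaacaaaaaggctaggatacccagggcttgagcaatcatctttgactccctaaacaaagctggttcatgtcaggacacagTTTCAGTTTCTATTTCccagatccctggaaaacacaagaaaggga
Ifit1: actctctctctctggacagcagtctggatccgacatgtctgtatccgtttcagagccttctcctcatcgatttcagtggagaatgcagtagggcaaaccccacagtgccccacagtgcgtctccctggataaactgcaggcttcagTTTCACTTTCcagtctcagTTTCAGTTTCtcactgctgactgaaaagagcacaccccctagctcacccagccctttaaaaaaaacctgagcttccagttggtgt

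In Bst2 a pair of overlapping matches began 130 and 124 bases before the start, and in Gbp3 a pair began 45 and 39 bases before it. In Ifit1 the matches began 104 and 85 bases before the start and did not overlap. Irf7 and Oasl2 held no match in this window, which says only that these letters are not in it. Among the 10 genes with a match, 9 were lower in arrays labelled TNF-/-, with a median difference of -0.11 and a range of -0.29 to 0.15. Among the 14 induced genes with an entry that was used and no match, 11 were lower, with a median of -0.06 and a range of -0.38 to 0.19. Most genes of both sets were dim, and 71.3% of all dim genes were lower. Irf7 and Oasl2, with the largest differences of the list, are in the set without a match. A link between the match and the differences was not tested.

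The 4 receptor genes were all bright, and the 95% interval of each difference included zero. Ifnar1, the first chain of the type I receptor, gave 7.58, 7.48, 7.75 and 7.61 in arrays labelled TNF-/-, against 7.49, 7.50, 7.41 and 7.49 in those labelled TNF+/+. The highest 3 arrays were labelled TNF-/- and array 2 of that group lay among the others, a difference of 0.13 ± 0.07 (SE; limma, adjusted p = 0.515) with a 95% interval of -0.02 to 0.28. Ifnar2, the second chain, gave 7.16, 7.12, 7.11 and 7.08 in arrays labelled TNF-/-, against 6.96, 7.25, 7.38 and 7.27 in those labelled TNF+/+. The arrays labelled TNF-/- lay close together (SD 0.03) within the wider range of the others (SD 0.18), at a difference of -0.10 ± 0.09, or 0.01 without TNF+/+ arrays 3 and 4. Ifngr2, a chain of the interferon gamma receptor, gave 8.56, 8.36, 8.73 and 8.64 in arrays labelled TNF-/-, against 8.46, 8.64, 8.73 and 8.82 in those labelled TNF+/+, with overlapping groups and a difference of -0.09 ± 0.10, or 0.02 without TNF+/+ arrays 3 and 4. The other chain, Ifngr1, differed by 0.07 ± 0.07 (0.12 without those 2 arrays), with means of 7.25 ± 0.10 in arrays labelled TNF-/- and 7.18 ± 0.09 in those labelled TNF+/+ (SD, n = 4). All 4 intervals lay within 0.5 of zero on the log2 scale.

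**Figure D1:**
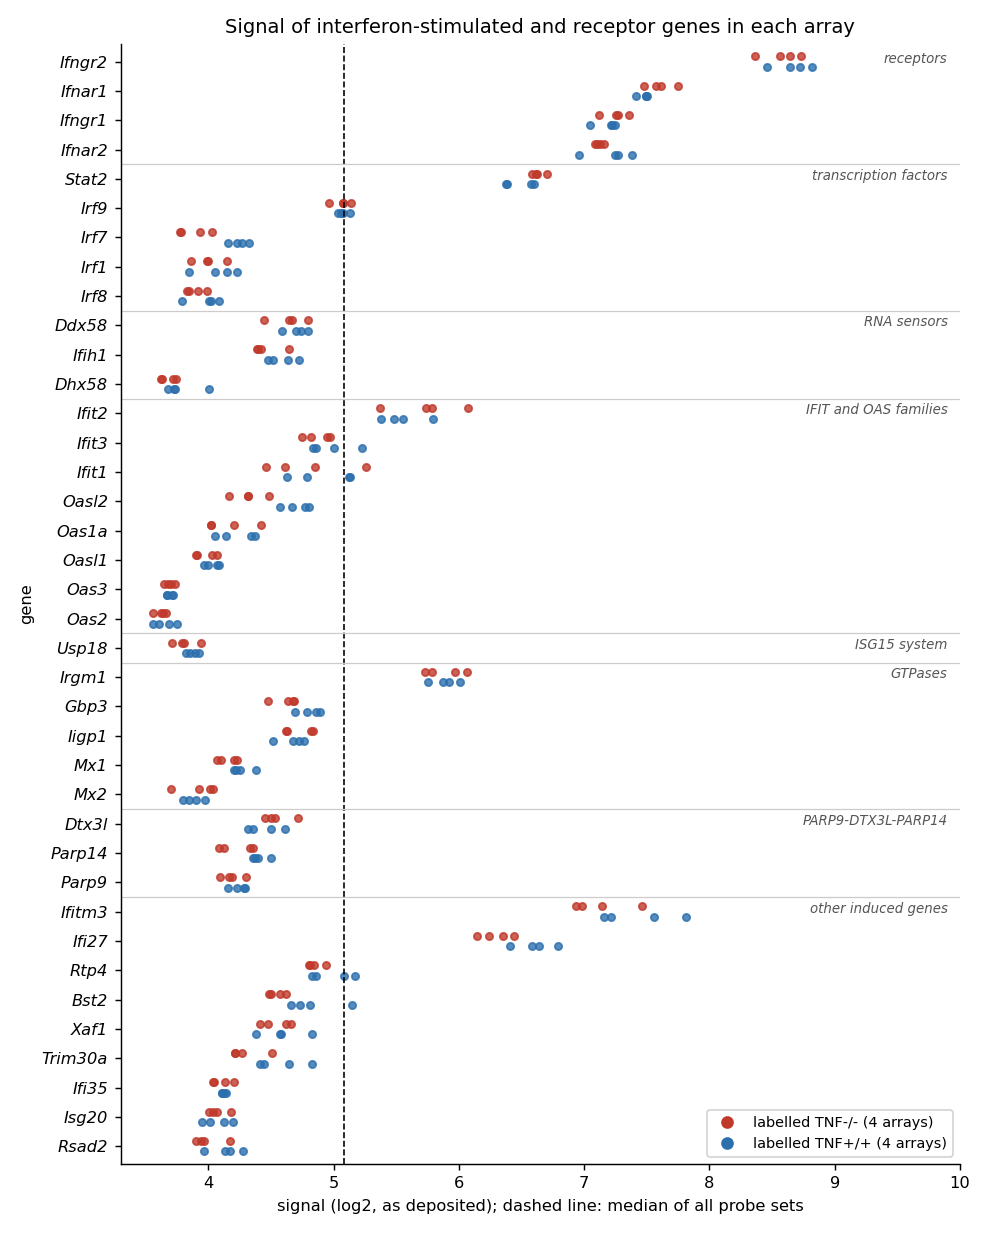
Signal of the 38 genes in each array, on the log2 scale as deposited, with genes grouped by role and each gene's 4 arrays labelled TNF-/- drawn above its 4 labelled TNF+/+. The 4 receptor genes lie between 6.96 and 8.82, right of the dashed line at 5.08, while 29 of the 34 other genes have a mean left of it.

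Of the 5 transcription factor genes 4 were lower in arrays labelled TNF-/-. Irf7 encodes the factor that drives the transcription of type I interferon genes and is itself induced by interferon. Its signal was 3.78, 4.03, 3.78 and 3.93 in arrays labelled TNF-/-, against 4.27, 4.15, 4.33 and 4.23 in those labelled TNF+/+. All arrays of the first group lay below all of the second, with a gap of 0.12 between them. The means were 3.88 ± 0.12 in arrays labelled TNF-/- and 4.25 ± 0.07 in those labelled TNF+/+ (SD, n = 4), a difference of -0.36 ± 0.07 (SE), or 1.29-fold (limma, adjusted p = 0.191). Irf7 was dim, with an 8-array mean of 4.06 at percentile 27.8 of all probe sets. Its mean in arrays labelled TNF-/- lay under the 25th percentile of those arrays (3.95 to 3.97).

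Stat2, the gene of a factor of the type I response, lay the other way. It gave 6.58, 6.70, 6.62 and 6.63 in arrays labelled TNF-/-, against 6.38, 6.58, 6.60 and 6.38 in those labelled TNF+/+. TNF+/+ arrays 1 and 4 were the low ones, and array 3 alone of that group reached the TNF-/- range (difference 0.15 ± 0.07; limma, adjusted p = 0.49). Irf9, the DNA-binding part of the complex, differed by -0.01 ± 0.06, with a 95% interval of -0.14 to 0.12. Irf8, a factor of microglia and other myeloid cells, differed by -0.08 ± 0.08. Irf1, the TNF-inducible factor, differed by -0.07 ± 0.10 in its brighter probe set (-0.19 without TNF+/+ arrays 3 and 4) and by -0.0031 in its other one. With means of 4.00 ± 0.12 in arrays labelled TNF-/- and 4.07 ± 0.17 in those labelled TNF+/+ (SD, n = 4), the Irf1 groups overlapped.

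The genes of 3 cytosolic RNA sensors, Ifih1, Ddx58 and Dhx58, were all dim. All 3 were lower in arrays labelled TNF-/-, with differences between -0.13 and -0.07 and overlapping groups. Ifih1 gave 4.42, 4.39, 4.39 and 4.65 in arrays labelled TNF-/-, against 4.48, 4.64, 4.73 and 4.51 in those labelled TNF+/+. TNF-/- array 4 alone of its group reached the TNF+/+ range. Ddx58, which encodes RIG-I, gave 4.45, 4.80, 4.64 and 4.67 in arrays labelled TNF-/-, against 4.59, 4.80, 4.70 and 4.74 in those labelled TNF+/+, so that the groups shared most of their range (difference -0.07 ± 0.08; limma, adjusted p = 0.782).

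Among 8 genes of the IFIT family, which bind foreign RNA, and the OAS family, oligoadenylate synthetases that sense double-stranded RNA, 7 were lower. Oasl2, an oligoadenylate synthetase-like gene, had the largest difference of the whole list. It gave 4.32, 4.16, 4.32 and 4.48 in arrays labelled TNF-/-, against 4.67, 4.57, 4.80 and 4.77 in those labelled TNF+/+. The groups did not overlap, the gap being 0.0872, and the difference was -0.38 ± 0.08 (SE), or 1.3-fold (limma, adjusted p = 0.212). The other 4 OAS genes, all on chromosome 5 like Oasl2, lay between -0.06 (Oas1a) and -0.0032 (Oas3), with Oas2 at -0.03 and Oasl1 at -0.05. Oas2 and Oas3 had among the lowest signals of the list, with means of 3.64 and 3.69 that fall under the 25th percentile of all probe sets, and at such signals little could be seen.

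The 3 IFIT genes lie together on chromosome 19 and did not share a direction. Ifit2 gave 5.37, 5.78, 5.74 and 6.07 in arrays labelled TNF-/-, against 5.56, 5.48, 5.38 and 5.79 in those labelled TNF+/+. Its TNF-/- array 1 was the lowest of all 8 and TNF-/- array 4 the highest, and the difference was 0.19 ± 0.15. Ifit1 gave 4.62, 4.46, 4.86 and 5.26 in arrays labelled TNF-/-, against 5.12, 5.13, 4.63 and 4.79 in those labelled TNF+/+. This was the widest spread of the list within a group (SD 0.35 among arrays labelled TNF-/-), and TNF-/- array 4 was again the highest (difference -0.12 ± 0.18, or -0.33 without TNF+/+ arrays 3 and 4). Ifit3 differed by -0.11 ± 0.10.

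Of the ISG15 system, in which a ubiquitin-like protein is attached to targets, Usp18 alone was measured. It encodes the protease that removes ISG15 and dampens signalling at IFNAR2. Usp18 gave 3.94, 3.81, 3.79 and 3.71 in arrays labelled TNF-/-, against 3.82, 3.89, 3.93 and 3.85 in those labelled TNF+/+. The first group held both the highest and the lowest array (difference -0.06 ± 0.06; limma, adjusted p = 0.745).

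Interferon-induced GTPases act on viruses and on the vacuoles of intracellular microbes, and 5 of their genes were measured. Gbp3, a guanylate-binding protein gene, gave 4.47, 4.63, 4.67 and 4.68 in arrays labelled TNF-/-, against 4.69, 4.86, 4.79 and 4.89 in those labelled TNF+/+. The groups did not overlap, though the gap was 0.0101, and the difference was -0.19 ± 0.07 (SE; limma, adjusted p = 0.401). Irgm1, a regulatory immunity-related GTPase and the bright gene of this family, gave 5.97, 5.78, 5.73 and 6.07 in arrays labelled TNF-/-, against 5.88, 5.92, 6.01 and 5.76 in those labelled TNF+/+. The 2 groups had the same mean to 2 decimals, 5.89, with a 95% interval of the difference from -0.21 to 0.20.

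Its relative Iigp1 differed by 0.06 ± 0.08. Mx1 gave 4.07, 4.21, 4.23 and 4.10 in arrays labelled TNF-/-, against 4.21, 4.22, 4.38 and 4.25 in those labelled TNF+/+, a difference of -0.11 ± 0.06 with overlapping groups, or -0.06 without TNF+/+ arrays 3 and 4. Mx2 differed by 0.04 ± 0.08, or by -0.02 without them. RefSeq lists both Mx1 and Mx2 of C57BL/6J as transcribed pseudogenes, since most inbred laboratory strains carry defective copies of these antiviral genes.

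Parp9, Dtx3l and Parp14 lie together on chromosome 16 and encode partners in ADP-ribosylation and ubiquitin transfer. Parp14, an ADP-ribosyltransferase gene, gave 4.08, 4.36, 4.12 and 4.34 in arrays labelled TNF-/-, against 4.36, 4.50, 4.37 and 4.40 in those labelled TNF+/+. The groups did not overlap, but the highest of the first and the lowest of the second were apart by only 0.00011 (difference -0.18 ± 0.08; limma, adjusted p = 0.457). Dtx3l, a ubiquitin ligase gene, gave 4.71, 4.50, 4.53 and 4.45 in arrays labelled TNF-/-, against 4.31, 4.61, 4.50 and 4.35 in those labelled TNF+/+, with a difference of 0.10 ± 0.09. Parp9, whose product binds that ligase, differed by -0.05 ± 0.06.

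**Figure D2:**
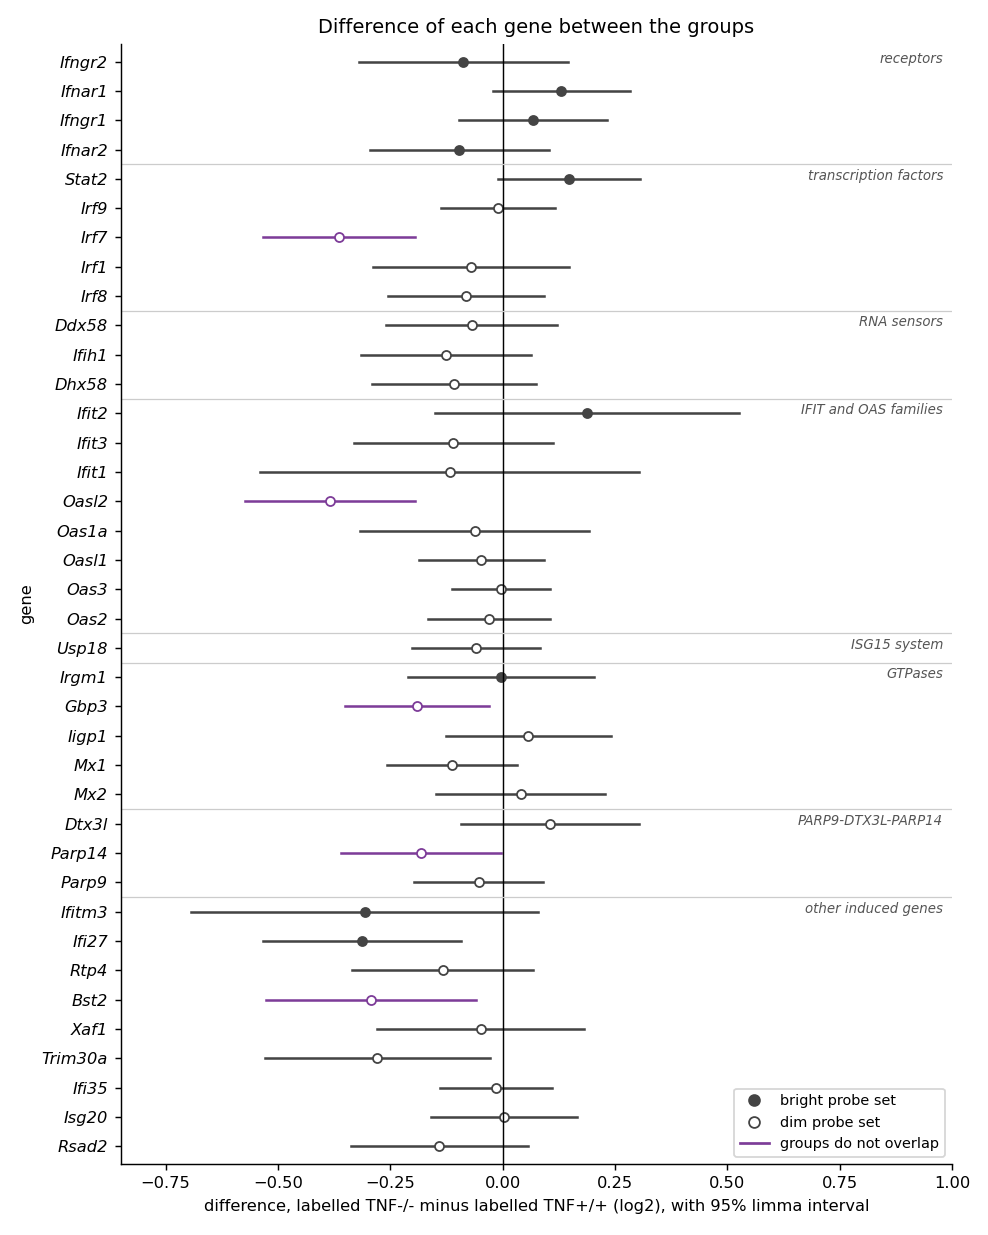
Log2 difference of each of the 38 genes (labelled TNF-/- minus labelled TNF+/+), with limma's 95% interval as a line, filled circles for bright and open circles for dim genes. The 5 genes whose groups did not overlap are drawn in purple, all to the left of zero, and no interval reaches 1 in either direction.

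Of the 9 remaining induced genes 8 were lower in arrays labelled TNF-/-, and 3 of them at an unadjusted p under 0.05, a p at which 4.28% of all genes were lower. Ifi27, which encodes a small hydrophobic membrane protein, was the bright gene with the smallest p. It gave 6.44, 6.14, 6.35 and 6.24 in arrays labelled TNF-/-, against 6.59, 6.41, 6.64 and 6.79 in those labelled TNF+/+. The groups overlapped through TNF-/- array 1 and TNF+/+ array 2, and the difference was -0.31 ± 0.10 (SE; limma, adjusted p = 0.344), or -0.20 without TNF+/+ arrays 3 and 4.

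Bst2 encodes tetherin, which holds budding virus at the cell surface. It gave 4.57, 4.62, 4.50 and 4.49 in arrays labelled TNF-/-, against 4.66, 4.74, 4.81 and 5.14 in those labelled TNF+/+. The groups did not overlap, TNF+/+ array 4 was the highest, and the difference was -0.29 ± 0.10 (limma, adjusted p = 0.379), or -0.15 without TNF+/+ arrays 3 and 4.

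Trim30a, whose product in mouse restrains Toll-like receptor signalling, gave 4.51, 4.27, 4.21 and 4.21 in arrays labelled TNF-/-, against 4.44, 4.64, 4.82 and 4.41 in those labelled TNF+/+. TNF-/- array 1 lay within the TNF+/+ range (difference -0.28 ± 0.11; limma, adjusted p = 0.424). Trim30a has close relatives beside it on chromosome 7, and no source used here says whether its probes separate them.

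Ifitm3 encodes a membrane protein that blocks the entry of virus and was bright. It gave 6.98, 6.94, 7.14 and 7.46 in arrays labelled TNF-/-, against 7.21, 7.16, 7.56 and 7.82 in those labelled TNF+/+. Array 4 was the highest of its group on both sides, the groups overlapped, and the difference of -0.31 ± 0.17 (limma, adjusted p = 0.548) was -0.06 without TNF+/+ arrays 3 and 4. Rsad2, which encodes viperin, gave 3.94, 3.96, 4.17 and 3.90 in arrays labelled TNF-/-, against 4.17, 3.96, 4.13 and 4.27 in those labelled TNF+/+, a difference of -0.14 ± 0.09, or -0.07 without TNF+/+ arrays 3 and 4. Rtp4, a chaperone gene for receptors, differed by -0.13 ± 0.09, or by -0.28 without them. Xaf1, a gene linked to cell death, Ifi35 and the exonuclease gene Isg20 differed by -0.05 ± 0.10, -0.02 ± 0.05 and 0.0026 ± 0.07. Without the same arrays Xaf1 differed by 0.06.

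**Figure D3:**
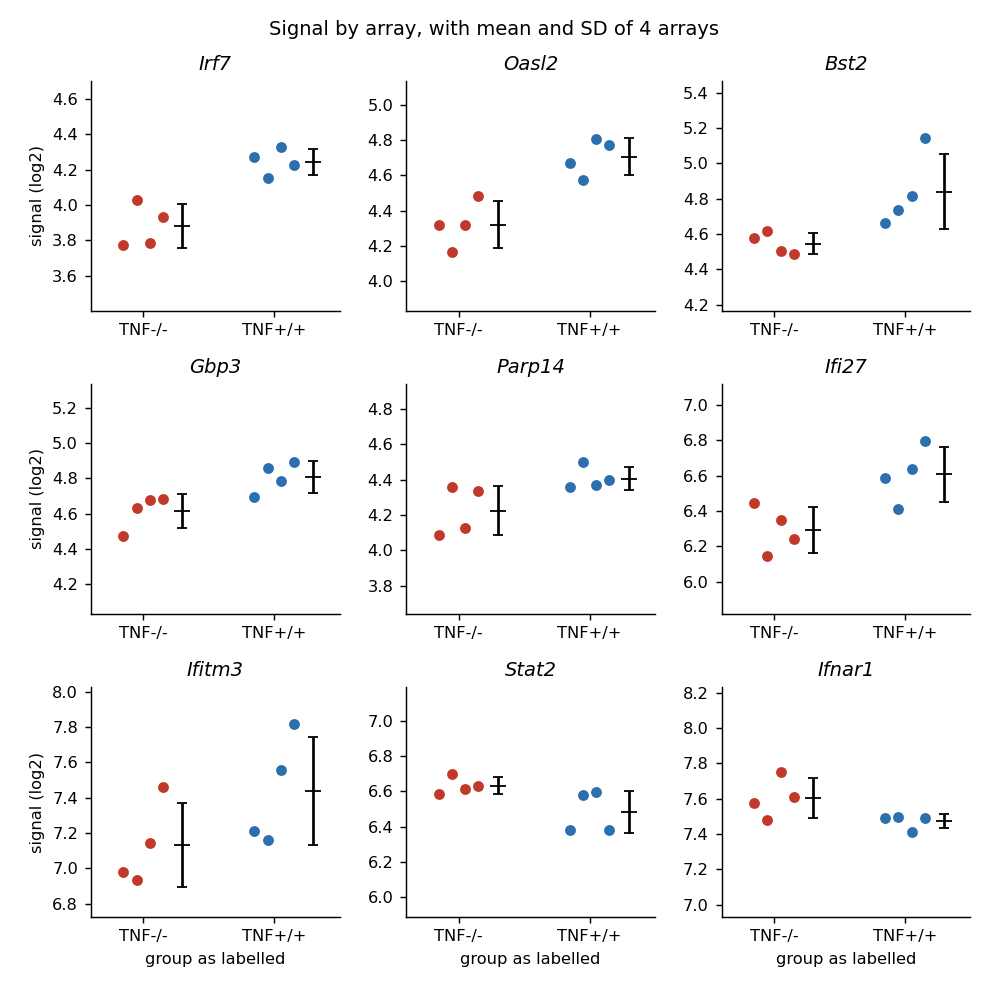
Log2 signal of 9 genes in each array, with 4 arrays labelled TNF-/- left and 4 labelled TNF+/+ right, and a bar for the mean and SD of each group; every panel spans the same height. Irf7, Oasl2, Bst2, Gbp3 and Parp14 show no overlap between the groups, by a gap of 0.12 for Irf7 and of 0.00011 for Parp14, while Ifi27, Ifitm3, Stat2 and Ifnar1 overlap.

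Grouped by brightness, 25 of the 29 dim genes and 5 of the 9 bright genes were lower in arrays labelled TNF-/-. The dim genes had a median difference of -0.07 and the bright ones of -0.0035. The median of the bright genes had no settled sign, running from -0.06 without TNF-/- array 4 to 0.04 without TNF+/+ array 3. Dim genes as a whole ran the same way: 71.3% of all 9264 dim genes were lower, with a median of -0.04, against 86.2% of the 29. Of all 10674 bright genes 35.6% were lower, with a median of 0.05. At an unadjusted p under 0.05, 6 of the 29 dim genes were lower (20.7%, against 5.43% of all dim genes lower and 1.74% higher), and 1 of the 9 bright genes, Ifi27, was lower (3.29% of all bright genes were lower and 12.3% higher). All 5 listed genes without overlap were dim, which is 17.2% of the 29 dim ones, and 5.19% of all dim genes had every array labelled TNF-/- below every other and 1.14% above. None of the 9 bright genes was without overlap, against 2.03% of all bright genes wholly lower and 6.78% wholly higher. How far the shift of dim probe sets in general enters the differences of Irf7 or Oasl2 was not tested. After quantile normalization these differences were -0.33 and -0.37, and the median of all dim genes was -0.0048. Under that normalization 22 of the 29 dim genes were lower, where 52.7% of all dim genes were. The listed medians were -0.04 for dim and -0.04 for bright genes. The groups of Irf7, Oasl2 and Bst2 still did not overlap, while those of Gbp3 and Parp14 did, and 2.53% of all genes were wholly lower. On the deposited values, the order of the medians changed with the split. At the 75th percentile of signal they were -0.09 for 3 bright and -0.07 for 35 dim genes. At the 25th percentile they were -0.08 for 32 bright and -0.04 for 6 dim genes.

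The mean signal of the 29 dim genes lay between 4.24 and 4.28 in arrays labelled TNF-/- and between 4.33 and 4.38 in those labelled TNF+/+. The mean over all dim genes lay between 4.00 and 4.02 in the first group and between 4.04 and 4.07 in the second. Neither set of means overlapped between the groups. The mean of the 9 bright genes ran from 6.84 to 7.02 in arrays labelled TNF-/- and from 6.84 to 7.04 in those labelled TNF+/+, with full overlap.

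**Figure D4:**
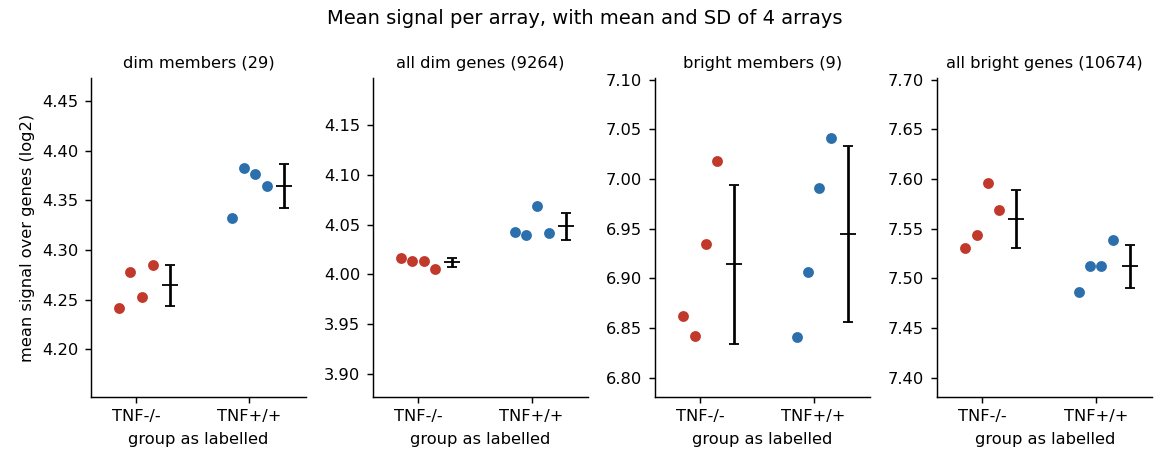
Mean log2 signal per array over the dim genes of the list, all dim genes, the bright genes of the list and all bright genes, with the mean and SD of each group of 4 arrays; each axis spans the same height. The dim genes of the list and all dim genes are lower in every array labelled TNF-/-, by group means of 4.26 against 4.36 and of 4.01 against 4.05, while the bright genes of the list overlap.

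**Figure D5:**
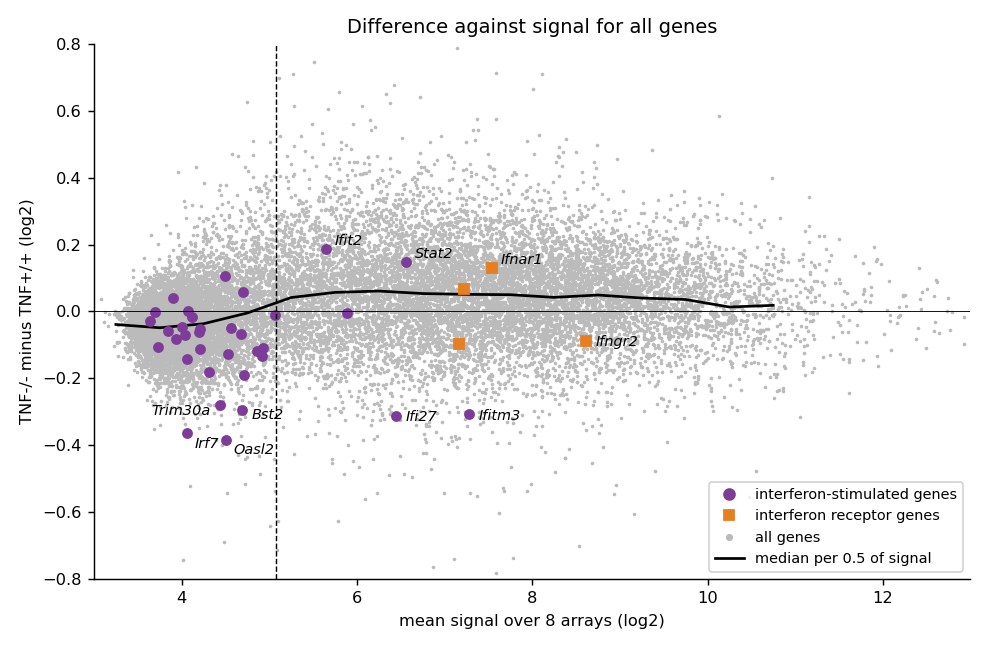
Difference between arrays labelled TNF-/- and TNF+/+ against mean signal over the 8 arrays, both log2, for all 19938 genes in grey, with the interferon-stimulated genes as circles, the receptor genes as squares and the median per 0.5 of signal as a line; 22 genes lie outside the axis. The line runs below zero at dim signals and above it at bright ones, and Irf7 (-0.36), Oasl2 (-0.38), Ifi27 (-0.31) and Ifitm3 (-0.31) lie well under it.

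Other genes of the pathway came from a list of 78, of which 66 were measured. None of the 66 passed over all probe sets, and at an unadjusted p under 0.05 there were 5 lower and 2 higher in arrays labelled TNF-/-, where 4.28% of all genes were lower and 7.37% higher. Their median difference was -0.01, with 36 lower and 30 higher. Of 31 further interferon-induced genes outside the main list, 15 were lower and 16 higher, with a median of 0.0032. Among them Gbp4, a guanylate-binding protein gene, gave 4.50, 4.41, 4.39 and 4.68 in arrays labelled TNF-/-, against 5.20, 4.84, 4.58 and 4.84 in those labelled TNF+/+ (difference -0.37 ± 0.13; limma, adjusted p = 0.372). TNF+/+ array 3 alone of its group lay within the TNF-/- range. Slfn5 and Epsti1, both induced by interferon, differed by -0.19 ± 0.07 and -0.16 ± 0.08.

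Of 8 interferon genes 7 were lower and 2 showed no overlap between groups. All but Ifnl2 were dim, and 71.3% of all dim genes were lower, while 5.19% of dim and 2.03% of bright genes were wholly lower. Ifnl2, an interferon lambda gene, gave 5.31, 5.67, 5.56 and 5.39 in arrays labelled TNF-/-, against 5.76, 6.12, 5.88 and 5.99 in those labelled TNF+/+ (difference -0.45 ± 0.10; limma, adjusted p = 0.238). Ifna4, an interferon alpha gene, had means of 3.71 ± 0.04 in arrays labelled TNF-/- and 3.97 ± 0.13 in those labelled TNF+/+ (SD, n = 4), a difference of -0.26 ± 0.07. The related genes Ifnl3 and Ifna1 pair only with probe sets of several symbols. No source used here says whether the probes of Ifnl2 and Ifna4 separate them from their relatives. Ifnb1 and Ifng, the interferon beta and gamma genes, differed by -0.14 ± 0.07 and -0.07 ± 0.09. Their means, between 3.56 and 3.93 by group, lay below the 25th percentile of all probe sets.

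Among 11 receptor kinases, STATs and feedback genes, Stat3 was the one whose groups did not overlap. It was bright, and 4.16% of all genes and 6.78% of bright genes were wholly higher in arrays labelled TNF-/-. Stat3, a factor of several cytokines, gave 7.77, 7.89, 7.87 and 7.83 in arrays labelled TNF-/-, against 7.55, 7.64, 7.55 and 7.59 in those labelled TNF+/+. All arrays of the first group were higher (difference 0.26 ± 0.05; limma, adjusted p = 0.186). The kinase genes Jak1 and Tyk2, which sit at the type I receptor, differed by 0.05 ± 0.06 and -0.06 ± 0.13. Of 16 sensors and adaptors 8 were lower and 8 higher. Myd88, the adaptor of Toll-like receptors, differed by 0.21 ± 0.08, the kinase gene Ikbke by -0.16 ± 0.07 and the factor gene Irf3 by -0.20 ± 0.10 (limma, adjusted p = 0.432, 0.438 and 0.502).

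Marker genes of cells that could carry these transcripts were set beside the list. Of 14 microglial genes 9 were lower, 2 of them at an unadjusted p under 0.05, where 4.28% of all genes were lower. The differences ran from -0.30 (C1qa) to 0.17 (P2ry12), with Cx3cr1 at -0.09 and Csf1r at -0.07, and the mean signal of the 14 genes was 5.93 to 6.09 in arrays labelled TNF-/- and 6.03 to 6.20 in those labelled TNF+/+. Of 8 endothelial genes 4 were lower, with means of 6.78 to 6.92 in arrays labelled TNF-/- and 6.77 to 6.99 in those labelled TNF+/+. Of 6 genes of border macrophages 3 were lower. The mean signal of 11 genes of blood leukocytes, 9 of them lower, was 3.75 to 3.79 in arrays labelled TNF-/- and 3.78 to 3.86 in those labelled TNF+/+, under the 25th percentile of every array (3.95 or above). Astrocyte genes stood at 4 of 8 lower. Oligodendrocyte genes were lower in 7 of 7, with means of 9.12 to 9.23 in arrays labelled TNF-/- and 9.26 to 9.56 in those labelled TNF+/+. All 7 were bright, with 4 lower at an unadjusted p under 0.05 (3.29% of all bright genes) and 4 wholly lower (2.03%). Meningeal and choroid plexus genes were higher in 9 of 9, with means of 6.80 to 6.89 in arrays labelled TNF-/- and 6.55 to 6.73 in those labelled TNF+/+. Of these 3 were higher at that p (7.37% of all genes and 12.3% of bright genes) and 2 wholly higher (4.16% and 6.78%). Of the 9 genes 7 were bright. The part of these cells in the differences above was not tested.

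The intervals bound what these arrays could have missed. All 38 intervals lay within 1 of zero on the log2 scale, and 30 lay within 0.5. The widest reach was -0.69 for Ifitm3 on the lower side and 0.52 for Ifit2 on the upper side. These intervals are not adjusted for the number of genes, and signals near background can understate a difference.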

How the data were processed

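Each of the 8 arrays gave the authors' deposited log2 signal for 35556 probe sets; the scale follows from the values (2.83 to 14.1). Per the submitters' processing notes, GCOS, GCRMA and Partek were used; their roles, their versions and the genome build are not given. Array correlations (Pearson, across probe sets) lay between 0.9863 and 0.9934, no columns were identical, and 0 value columns were left unused. The number of arrays limits the precision.

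Values were used as deposited. The platform annotation pairs 21789 probe sets with 1 symbol, 1621 with several, and does not list 12146. Symbols were matched to RefSeq (GRCm38.p6) by gene ID, for 21698 of them. The genotypes were tested in limma 3.58.1 under R 4.3.3 (two-sided, p adjusted by Benjamini-Hochberg across the whole table, 2.521 prior degrees of freedom). The same fit was also run on simulated data with known changes. SAM used 70 assignments, with an estimated false discovery rate of 4.49%. Plots used matplotlib 3.10.9. The titles give both groups replicate numbers 1 to 4. Deviations of same-numbered arrays correlated by 0.0672, 0.112, 0.0974 and 0.0742, and those of different numbers by -0.116 to 0.101. The labels do not tie the numbers to anything shared, so they were not taken as pairs in the main fit. Whether they are pairs was not settled.

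The genes and lists were chosen with earlier results of these data known, so no test of a list is given. All 38 genes are named; values per array are given for the 12 with the smallest p, those without overlap and the brightest of each role. From the pathway list the 8 with the smallest p and Jak1, Tyk2, Irf3, Ifnb1 and Ifng are named. An item withheld for evaluation is not reported here. Chosen after their values were seen were the array values of Ifnar2, Ifih1, Ifit1 and Gbp4, the second probe set of Irf1, and the microglial genes named. Alternatives tried were other scalings, filters, variance models, weights, a replicate block, SAM, other splits of brightness, the mean of a gene's probe sets, and arrays left out.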

Additional observations from a re-analysis of the deposited data

Results flagged for a closer look

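In 80 groups of 4 arrays (the 38 genes and the medians of bright and dim genes, in each group), 4 held an array far from the other 3, and chance gives about 4. Ifnar1 was low in TNF+/+ array 3 (7.41, the other 3 being 7.49 to 7.50). Ifngr1 was low in TNF+/+ array 1 (7.04, against 7.21 to 7.25). Ifih1 was high in TNF-/- array 4 (4.65, against 4.39 to 4.42). The median of the dim genes was low in TNF-/- array 1 (4.16, against 4.20 to 4.21).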

How the results depend on the processing

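The count of listed genes called stayed at 0 under every alternative tried, SAM included, with the lowest adjusted p (limma) at 0.0864 for Irf7 with the test run on 1-symbol probe sets alone. The 12 genes with the smallest p kept their direction in every fit that gave them a difference, which leaves out SAM for all 12 and the fit without dim probe sets for the 8 dim ones; Irf7 ranged from -0.41 to -0.33 and Oasl2 from -0.44 to -0.30, Bst2 from -0.35 to -0.15 and Ifitm3 from -0.42 to -0.06. Listed genes lower in arrays labelled TNF-/- numbered 30 with all arrays, 27 after quantile normalization, and 5 of 9 when dim probe sets were left out. Listed genes without overlap numbered 5 with all arrays, 3 after quantile normalization, 0 when dim probe sets were left out, 8 without TNF+/+ arrays 3 and 4 (7 lower and Stat2 higher, where 9.77% of all genes were wholly lower and 11.7% wholly higher), and 5 to 10 with 1 array left out. The highest came without TNF-/- array 1 (8 lower and 2 higher, where 6.15% of all genes were wholly lower and 8.54% wholly higher); fewer arrays make overlap less likely. Listed genes lower at an unadjusted p under 0.05 numbered 7 with all arrays, 3 without TNF+/+ arrays 3 and 4, and 1 among bright probe sets alone. With all arrays 4.28% of all genes were lower at that p. The shares for the other 2 fits are not given, so their counts are not read as particular to the list. Probe sets called over the whole table numbered 29 by limma, 53 by SAM, 63 with 1-symbol probe sets alone, 0 without TNF+/+ arrays 3 and 4, and 1 to 20 with 1 array left out, the lowest without TNF+/+ array 3. With the replicate number as a block limma called 0 probe sets and 0 of the 38 genes. The check made did not settle whether the numbers pair the arrays. Same-numbered arrays correlated by 0.0672 to 0.112, but TNF-/- array 3 correlated best with TNF+/+ array 4 (0.101). Signals near background limit what can be seen for the dim genes. The cause of the changes between alternatives was not tested.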
